A study of Mus musculus with 6 samples.

Results

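The runt-related transcription factors Runx1, Runx2 and Runx3 and their shared partner Cbfb were followed in RNA-seq of hair follicle stem cells labelled Ring1a/b-/- or WT. The 4 genes were taken by symbol from a table of 23377 genes, and all 4 passed the filter on low counts, which left 13134 genes. The family was selected on the measured levels of Runx1 in these same libraries. Its fold change, and those of the other 3 genes in the same comparison, are therefore given as a description without p-values.

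There were 2 libraries of genotype Ring1a/b-/- (knockout) and 2 of genotype WT (wild type), from FACS-sorted cells of C57BL/6 hair follicles labelled as hair follicle stem cells. Each library was made from 3000 cells by SMART-seq2, which copies polyadenylated RNA at full length and amplifies it by PCR. The Ring1a and Ring1b proteins are related ubiquitin ligases of Polycomb repressive complex 1, which modifies histone H2A and keeps developmental genes silent. For the RNA libraries, the sources used here do not give the agent or promoter that drove the deletion, the deleted exons or the age of the animals. Nothing states that the libraries came from separate animals, so the spread between them, and any p-value, may be technical.

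Total counts were 4844381 and 7740945 in Ring1a/b-/- libraries and 2785843 and 3056593 in WT libraries. Lgr5, a marker of these stem cells, stood at 251 and 240 CPM (a gene's count divided by the library's size after TMM scaling, expressed per 1e+06 counts) in Ring1a/b-/- libraries and 140 and 194 CPM in WT libraries. Ring1, which encodes Ring1a, was at 15.5 and 18.4 CPM in Ring1a/b-/- libraries and 31.9 and 29.4 CPM in WT libraries. Rnf2, which encodes Ring1b, was at 151 and 153 CPM in Ring1a/b-/- libraries and 144 and 87.8 CPM in WT libraries. Counts over whole genes do not check a deletion of single exons.

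RUNX proteins bind DNA through the Runt domain at the motif TGTGGT, and act as activators or repressors depending on the cofactors they recruit. Cbfb encodes CBF-beta, the non-DNA-binding subunit that joins each RUNX protein and strengthens its hold on DNA. Runx1 is needed for definitive blood stem cells and, in mouse skin, for timely activation of hair follicle stem cells. Runx2 directs bone formation, and Runx3 is known from sensory neurons, T cells and the Langerhans cells of the epidermis. Mammalian Runx genes have a distal and a proximal promoter that give proteins with different N-termini, and counts per gene do not tell these apart.

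Each of the 3 Runx genes has a start region that holds the motif their own products bind, which is why these sequences are shown. In RefSeq windows of 250 bases before to 50 after a start site on GRCm38.p6, the longest run of bases shared by Runx1, Runx2 and Runx3 was 18 bases long. It holds ACCACA, the reverse complement of TGTGGT, in 2 copies, which are in capitals here: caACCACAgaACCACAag. The 30 bases around it read as follows, 5′ to 3′ on the gene's strand.
Runx1, chr16:92826026-92826055, minus strand: tcataaacaACCACAgaACCACAagttggg
Runx2, chr17:44814584-44814613, minus strand: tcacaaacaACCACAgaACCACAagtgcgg
Runx3, chr4:135120502-135120531, plus strand: ggtccctcaACCACAgaACCACAaggccag

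The printed stretch lies 20 to 49 bases after the start site in Runx1, 15 to 44 bases after it in Runx2, and 143 to 114 bases before it in Runx3. Among 32851 windows in the table, 4 held the shared run, and the fourth belonged to Gm16225, whose window on the opposite strand overlaps that of Runx3. TGTGGT in either orientation was present in 16.8% of all windows, and at least 2 copies were present in 1.81%. The Runx1 and Runx3 upstream windows each held 2 copies and the single Runx2 window held 3, of which 1 began 80 bases before the start. The related motif TGCGGT, found in 6.45% of all windows on either strand, was present in the Runx2 window alone among the 6 windows of the 4 genes. The Cbfb window and the downstream windows of Runx1 and Runx3 held neither motif. A match is a string of letters and was not measured as a bound site in these cells.

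The alternative start regions also differed in content of CpG, the dinucleotide of the CpG islands where Polycomb complexes are known to gather. The observed over expected CpG ratio was 0.14 in the upstream window of Runx1 and 1.01 in its downstream window, 128745 bases away. For Runx3 it was 0.26 upstream and 1.01 downstream, 31900 bases away. Runx2 had 1 window, with a ratio of 0.14, and the Cbfb window had 0.99, against a median of 0.38 over all windows. The 250 bases before both Runx1 start sites show the contrast, with each CpG in capitals.
Runx1 upstream, chr16:92826075-92826324, minus strand, 2 CpG: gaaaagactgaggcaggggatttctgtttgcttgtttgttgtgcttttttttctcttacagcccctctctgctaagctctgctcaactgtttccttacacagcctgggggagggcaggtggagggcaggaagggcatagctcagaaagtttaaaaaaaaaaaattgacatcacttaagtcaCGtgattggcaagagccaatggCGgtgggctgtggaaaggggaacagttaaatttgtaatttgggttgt
Runx1 downstream, chr16:92697330-92697579, minus strand, 27 CpG: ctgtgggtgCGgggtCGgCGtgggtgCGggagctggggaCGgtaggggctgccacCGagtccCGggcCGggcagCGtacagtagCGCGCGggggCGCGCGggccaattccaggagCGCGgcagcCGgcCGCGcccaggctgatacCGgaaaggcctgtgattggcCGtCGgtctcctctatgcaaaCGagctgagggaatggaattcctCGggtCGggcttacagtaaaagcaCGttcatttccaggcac

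The genotypes were compared to find genes whose level differs with the labelled loss of Ring1a and Ring1b. Runx1 and Runx3 were higher in both knockout libraries than in either wild-type library, while Runx2 and Cbfb overlapped between genotypes. Of the 13134 genes tested, 24.8% were likewise apart as higher, meaning higher in both knockout libraries than in either wild-type library, and 22.3% were apart as lower. Neither separation adds support. The family was selected on Runx1. Runx3 passed the count filter only through the knockout libraries, so that its place above wild type was fixed by the filter. Runx1 had 1384 and 2043 counts in Ring1a/b-/- libraries and 92 and 186 counts in WT libraries. On the CPM scale this was 279 and 254 in Ring1a/b-/- libraries, against 34.9 and 62.1 in WT libraries. The lowest knockout library stood 4.1 times above the highest wild-type library, and the knockout libraries lay closer to each other (1.1-fold apart) than the wild-type ones (1.78-fold).

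The mean level of Runx1 was 267 ± 17.8 CPM in Ring1a/b-/- libraries and 48.5 ± 19.2 CPM in WT libraries (SD, n = 2 each), a log2 fold change of 2.45 ± 0.29 (SE). Of all tested genes, 95% had a lower log2 fold change. In edgeR's quasi-likelihood test over all genes, 7 genes (0.0533%) passed an adjusted p of 0.05 as higher, 1 (0.00761%) as lower and 8 of 13134 (0.0609%) in either direction. Runx1 was among the 7, which adds no support, since the family was selected on these same values. It was no longer among the genes called when Ring1a/b-/- replicate 1 or Ring1a/b-/- replicate 2 was left out, or with DESeq2 size factors, limma-voom or a filter on 1 CPM in 2 libraries.

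Runx3 had 143 and 188 counts in Ring1a/b-/- libraries and few counts, 3 and 7, in WT libraries. Its level was 28.9 and 23.4 CPM in Ring1a/b-/- libraries and 1.14 and 2.34 CPM in WT libraries. The lowest knockout library stood 10 times above the highest wild-type library. The log2 fold change of Runx3 was 3.88 ± 0.97 (SE), a larger estimate than that of Runx1 with a wider SE. From summed counts the ratio was 14.4, with a 95% counting interval of 7.71 to 30.2 that covers counting error only. When WT replicate 2 was left out, so that 3 WT counts remained, the ratio was 22.4 with an interval of 7.59 to 109.

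Runx2 varied widely within each genotype. It had 69 and 374 counts in Ring1a/b-/- libraries and 44 and 14 in WT libraries. Its level was 13.9 and 46.6 CPM in Ring1a/b-/- libraries and 16.7 and 4.67 CPM in WT libraries. Knockout replicate 1 lay below wild-type replicate 1, so the groups overlapped. The mean was 30.2 ± 23.1 CPM in Ring1a/b-/- libraries and 10.7 ± 8.51 CPM in WT libraries (SD, n = 2 each), a log2 fold change of 1.51 ± 0.9 (SE). It was 0.36 without knockout replicate 2 and 2.12 without knockout replicate 1. Leaving out WT replicate 2 gave 0.85, and leaving out WT replicate 1 gave 2.71.

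Cbfb, the common partner, had 482 and 720 counts in Ring1a/b-/- libraries and 236 and 467 in WT libraries. Its level was 97.3 and 89.6 CPM in Ring1a/b-/- libraries, against 89.6 and 156 CPM in WT libraries. Both knockout libraries thus stood at the level of wild-type replicate 1, and wild-type replicate 2 was apart from the other 3 libraries. The log2 fold change of Cbfb was -0.39 ± 0.3 (SE). Without wild-type replicate 2 it was 0.041, so that its sign turns on this library.

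**Figure D1:**
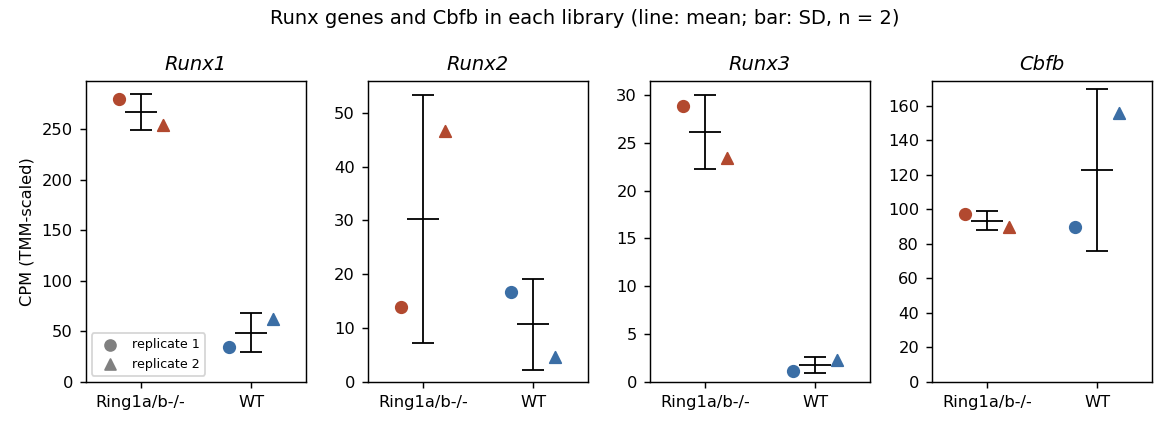
Level of Runx1, Runx2, Runx3 and Cbfb in CPM (vertical axes, each from 0) in the Ring1a/b-/- libraries (left, red) and the WT libraries (right, blue). Circles are replicate 1, triangles replicate 2, lines the mean and bars the SD (n = 2). Runx1 (279 and 254 CPM in Ring1a/b-/- libraries, 34.9 and 62.1 CPM in WT libraries) and Runx3 separate by genotype, and Runx2 and Cbfb do not.

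Runx genes are also active in cells other than follicle stem cells, and markers of some of these differed between genotypes. In bulk libraries a different number of such cells and a different amount of RNA per cell cannot be told apart. The 11 leukocyte markers summed to 893 and 434 CPM in Ring1a/b-/- libraries and 157 and 152 CPM in WT libraries, and 8 of 11 were apart as higher, where 24.8% of all tested genes were. Of these, Ctss, the lysosomal protease cathepsin S, passed the edgeR test over all genes (adjusted p = 0.0444). This call depends on the setting, since limma-voom called 0 of all genes. Ptprc, the pan-leukocyte marker CD45, was at 44.8 and 36.4 CPM in Ring1a/b-/- libraries and 4.18 and 22 CPM in WT libraries.

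Langerhans cell markers summed to 433 and 310 CPM in Ring1a/b-/- libraries and 277 and 295 CPM in WT libraries, and Cd207, which encodes their defining lectin langerin, had 0 counts in every library. Of these 6 markers 1 was apart as higher and 1 as lower, where 24.8% and 22.3% of all tested genes were. T cell markers summed to 21.2 and 38 CPM in Ring1a/b-/- libraries and 36.8 and 39.7 CPM in WT libraries, with 0 of the 6 in the table apart as higher and 1 as lower. Cd3e and Cd3g, subunits of the T cell receptor complex, were each below 1 CPM in all 4 libraries. Cd3d, another subunit, was at 4.04 and 3.49 CPM in Ring1a/b-/- libraries and 4.18 and 5.67 CPM in WT libraries. Thy1, a surface protein that other cells also carry, was at 17 and 34.4 CPM in Ring1a/b-/- libraries and 32.3 and 33.4 CPM in WT libraries. The part of these cells in the Runx1 and Runx3 levels was not tested.

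The other marker lists were read in the same way, beside the 24.8% of all tested genes apart as higher and 22.3% as lower. Endothelial and mural markers summed to 12.5 and 47.4 CPM in Ring1a/b-/- libraries and 177 and 179 CPM in WT libraries, with 4 of 6 apart as lower. Most of each sum was Acta2, at 9.89 and 46.7 CPM in Ring1a/b-/- libraries and 158 and 138 CPM in WT libraries. The endothelial genes Pecam1 and Cdh5 were at 0 CPM in WT replicate 1 and at 11.7 and 9.01 CPM in WT replicate 2. Fibroblast and papilla markers summed to 413 and 305 CPM in Ring1a/b-/- libraries and 666 and 819 CPM in WT libraries, with 3 of 10 apart as higher and 2 as lower. Merkel cell and simple epithelial markers summed to 81.6 and 109 CPM in Ring1a/b-/- libraries and 7.97 and 30.4 CPM in WT libraries, with 4 of 6 apart as higher. Most of each sum was the keratins Krt8 and Krt18. Atoh1 (0 and 0.871 CPM in Ring1a/b-/- libraries, 0 and 0.667 CPM in WT libraries) and Krt20 (0.606 and 0.12 CPM, against 0 and 1.67 CPM) were near 0 and overlapped. Hair lineage markers summed to 2111 and 2131 CPM in Ring1a/b-/- libraries and 4165 and 3307 CPM in WT libraries, with 3 of 12 apart as higher and 8 as lower. Those apart as higher included Krt31, at only 0.4 and 0.12 CPM in Ring1a/b-/- libraries and 0 CPM in both WT libraries. Melanocyte markers summed to 187 and 133 CPM in Ring1a/b-/- libraries and 194 and 197 CPM in WT libraries, with 2 of 7 apart as lower. Schwann markers summed to 19 and 31.5 CPM in Ring1a/b-/- libraries and 16.7 and 32.4 CPM in WT libraries, with 1 of 5 apart as higher, and the defining Schwann factor Sox10 had 0 counts in every library. Their part in the Runx levels was not tested.

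Stem cell and basal keratinocyte markers were detected in both genotypes. Follicle stem cell markers summed to 1599 and 1386 CPM in Ring1a/b-/- libraries and 1247 and 1440 CPM in WT libraries, and basal keratinocyte markers to 2272 and 2029 CPM in Ring1a/b-/- libraries and 2582 and 2280 CPM in WT libraries. The stem cell sums overlapped between genotypes, with 4 of 14 markers apart as higher and 2 as lower. The list holds the symbols Tcf3 and Tcf4, which are not specific to stem cells. Tcf4 was among the 4 apart as higher, at 160 and 149 CPM in Ring1a/b-/- libraries and 94.9 and 133.5 CPM in WT libraries. The basal sums were slightly lower in Ring1a/b-/- libraries without overlap, with 3 of 8 markers apart as higher and 3 as lower. Over all tested genes these shares were 24.8% and 22.3%. Nfatc1, a factor of quiescent follicle stem cells, was at 38.8 and 34 CPM in Ring1a/b-/- libraries and 0 and 2.34 CPM in WT libraries. It was 1 of the 4 stem cell markers apart as higher. The 2 apart as lower were Cd34 and Krt15. Cd34 was at 15.3 and 2.61 CPM in Ring1a/b-/- libraries and 24.3 and 20.4 CPM in WT libraries. Krt15 was at 303 and 250 CPM in Ring1a/b-/- libraries and 417 and 362 CPM in WT libraries.

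**Figure D2:**
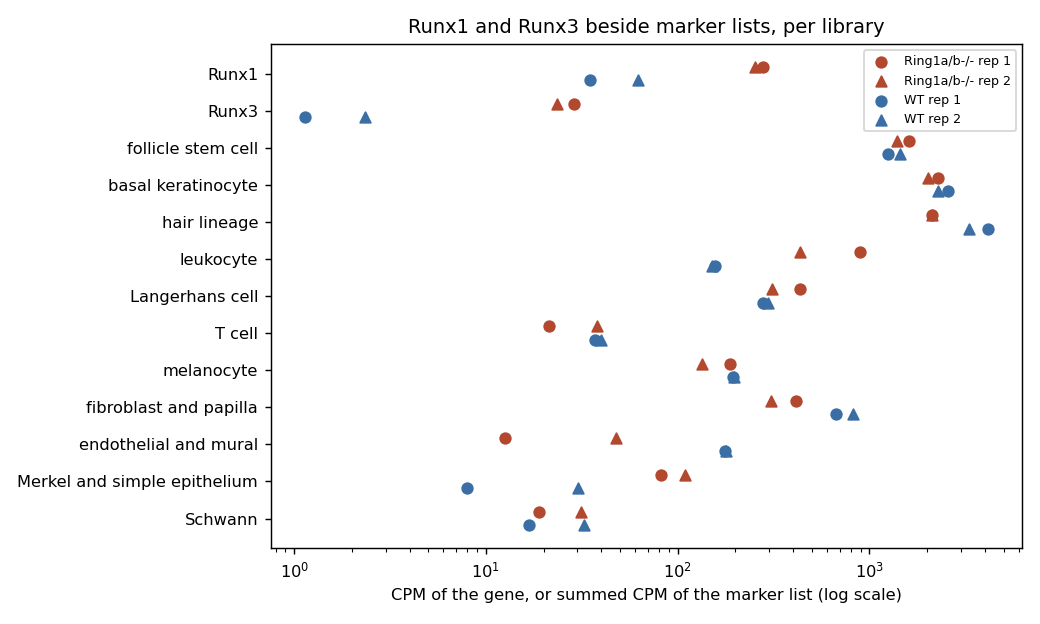
CPM of Runx1 and Runx3, and summed CPM of each marker list (horizontal log axis), per library; Ring1a/b-/- red and above, WT blue and below, circles replicate 1 and triangles replicate 2. The leukocyte sums (893 and 434 CPM in Ring1a/b-/- libraries, 157 and 152 CPM in WT libraries) and the Runx1 levels (279 and 254 CPM in Ring1a/b-/- libraries, 34.9 and 62.1 CPM in WT libraries) both separate by genotype. So do most other lists. The Langerhans and Merkel sums are higher in Ring1a/b-/- libraries, and the endothelial, fibroblast, hair lineage, melanocyte and basal sums are lower.

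Groups without overlap were thus common in these libraries, and the 2 of 4 genes that separated are to be read against that background. The shares that follow are a description. They carry no support for Runx1, on which the family was selected, or for Runx3, which passed the filter through the knockout libraries alone. By size of change, 5.56% of tested genes had a larger absolute log2 fold change than Runx1, and 2.73% a larger one than Runx3. For Runx2 this share was 11.3% and for Cbfb 52.2%. The median over all tested genes was 0.03.

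**Figure D3:**
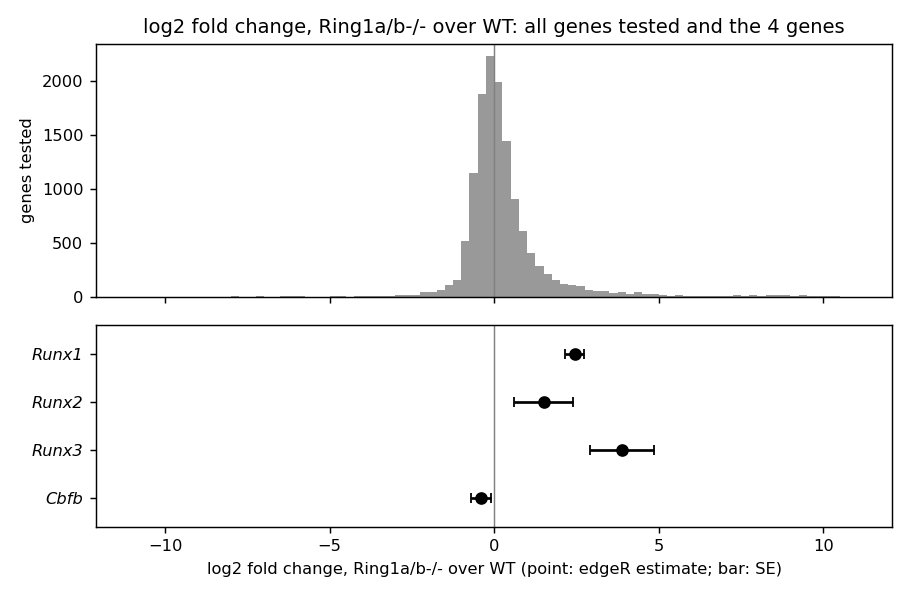
Upper panel, number of tested genes by log2 fold change of Ring1a/b-/- over WT (horizontal axis); lower panel, the edgeR estimate (points) and SE (bars) for each of the 4 genes. Runx3 (3.88) and Runx1 (2.45) lie in the upper tail and Cbfb (-0.39) lies in the bulk of the genes.

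The authors' deposited table, made from the same counts, marked Runx1 and Runx3 as higher and left Runx2 and Cbfb unmarked. That table marks 7.35% of the genes with an adjusted p as higher and 1.29% as lower. The rule behind these marks was not checked, so they may not share a threshold with the DESeq2 test computed here. In the authors' deposited table the log2 fold changes were 2.45 for Runx1, 3.89 for Runx3, 1.51 for Runx2 and -0.4 for Cbfb. The DESeq2 test computed here called Runx1 and Runx3 among 901 higher genes (6.21%), and 6.14% of genes as lower. Without the low-count filter edgeR called Runx1 and Runx3 too, in a run with 455 genes called higher and 347 lower. Why the settings differ for Runx3 was not tested.

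The balance of Runx to Cbfb counts differed between genotypes without overlap. Most Runx counts came from Runx1, on which the family was selected. The balance thus largely restates the Runx1 values and adds no support. For each Cbfb count there were 3.31 and 3.62 Runx counts in Ring1a/b-/- libraries and 0.589 and 0.443 in WT libraries. Runx1 alone had 2.87 and 2.84 counts per Cbfb count in Ring1a/b-/- libraries, against 0.39 and 0.398 in WT libraries. Gene lengths cancel when the same ratio is compared between libraries, but the ratio is not one of molecules. Levels are not compared between the 4 genes, because no exon lengths were used here.

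Of all Runx counts, which are not corrected for gene length, those of Runx1 were 86.7% and 78.4% in Ring1a/b-/- libraries and 66.2% and 89.9% in WT libraries. These shares overlap between genotypes. The share of Runx2 was 4.32% and 14.4% in Ring1a/b-/- libraries and 31.7% and 6.76% in WT libraries, and it also overlapped. The share of Runx3 was 8.96% and 7.22% in Ring1a/b-/- libraries, with exact 95% binomial intervals of 7.6% to 10.5% and 6.25% to 8.28%. In WT libraries it was 2.16% and 3.38%, with intervals of 0.447% to 6.18% and 1.37% to 6.84%. The interval of WT replicate 2 reached that of Ring1a/b-/- replicate 2, and that of WT replicate 1 reached neither knockout interval. These intervals cover counting error only and not the spread between libraries. Runx3 passed the count filter only through the knockout libraries, so its higher share there carries no support. The summed Runx level was 322 and 324 CPM in Ring1a/b-/- libraries and 52.8 and 69.1 CPM in WT libraries, and it did not overlap. This sum also largely restates the Runx1 values on which the family was selected.

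**Figure D4:**
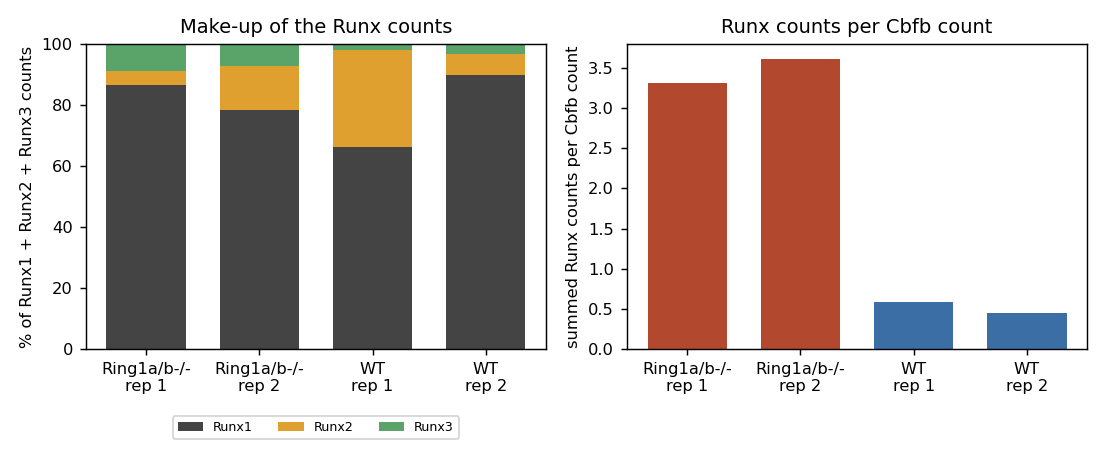
Left, percentage of the summed Runx counts given by each Runx gene in each library; right, summed Runx counts per Cbfb count in each library (knockout red, wild type blue). The right bars stand at 3.31 and 3.62 in Ring1a/b-/- libraries and at 0.589 and 0.443 in WT libraries, and largely restate the selected Runx1 values. The share of Runx1 overlaps between genotypes.

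Genes that work with RUNX proteins, or are known targets in other tissues, were read from 8 lists. Of 113 listed genes, 87 were expressed enough to test, and edgeR called 0 higher and 0 lower at an adjusted p of 0.05 over all genes (lowest adjusted p = 0.147). At an unadjusted p under 0.05 there were 9 higher and 5 lower, where 1112 higher and 1072 lower (16.6%) were found among all 13134 genes. DESeq2 called 8 higher and 2 lower of the listed genes. The libraries of the genotypes were apart for 24 higher and 14 lower genes, 43.7% of those tested, where 47% of all genes were apart. The listed genes as a whole were thus near the background. Genes with few wild-type counts, such as Gata2 and Eomes, passed the filter only through the knockout libraries. Being apart as higher was therefore fixed for them by the filter.

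Among the corepressors, 15 of 16 were tested, 5 were apart as higher and 1 as lower. The median log2 fold change was 0.06, and ran from 0.0025 to 0.19 with 1 library left out. Ncor1, a scaffold of histone deacetylase complexes, stood at 492 ± 20.5 CPM in Ring1a/b-/- libraries and 518 ± 94.4 CPM in WT libraries. Tle3, a Groucho-family corepressor that binds the C-terminus of RUNX proteins, stood at 240 ± 7.09 CPM in Ring1a/b-/- libraries and 225 ± 59.2 CPM in WT libraries. DESeq2 called Tle1, another Groucho-family gene, as higher, at 30.5 ± 5.34 CPM in Ring1a/b-/- libraries and 10.7 ± 0.471 CPM in WT libraries.

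All 9 coactivators were tested, with 3 apart as higher, 3 as lower and a median of -0.04 (-0.06 to -0.02 with 1 library left out). Kmt2a, a histone H3 methyltransferase that binds RUNX1, stood at 312 ± 2.36 CPM in Ring1a/b-/- libraries and 274 ± 33.5 CPM in WT libraries. Smarca4, the ATPase of the SWI/SNF remodelling complex, stood at 326 ± 50.8 CPM in Ring1a/b-/- libraries and 407 ± 21.3 CPM in WT libraries. Neither passed edgeR (adjusted p = 0.696 for Kmt2a and 0.439 for Smarca4). The 1 coactivator called by DESeq2, as higher, was Kat6b, a histone acetyltransferase, at 84.3 ± 3.88 CPM in Ring1a/b-/- libraries and 45.9 ± 2.6 CPM in WT libraries.

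Transcription factors known to act beside RUNX on DNA had a median of 0.19 over the 18 tested of 20 (0.06 to 0.63 with 1 library left out), with 4 apart as higher and 1 as lower. Smad5, a transducer of BMP signals, stood at 220 ± 18.4 CPM in Ring1a/b-/- libraries and 206 ± 64.3 CPM in WT libraries. Elf1, an ETS factor, stood at 176 ± 21 CPM in Ring1a/b-/- libraries and 157 ± 10 CPM in WT libraries. The 1 gene of the list called by DESeq2 was Gata2, a blood and endothelial factor, with 10.5 and 17.1 CPM in Ring1a/b-/- libraries and 0 counts in both wild-type libraries. Against a floor of 3 counts over the wild-type group, Gata2 was at least 27.3-fold higher, and edgeR gave it an adjusted p of 0.147.

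Enzymes that modify RUNX proteins had 4 genes apart as higher, 5 as lower and a median of -0.09 over the 19 tested (-0.18 to -0.0033 with 1 library left out). Cdk4, the cyclin D-dependent kinase, stood at 234 ± 36.5 CPM in Ring1a/b-/- libraries and 377 ± 86.1 CPM in WT libraries (edgeR adjusted p = 0.18). DESeq2 called Cdk4 and Cdk1 as lower.

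Of 9 genes tied to Runx1 in mouse follicle and keratinocyte work, 3 were apart as higher and 3 as lower. The median was -0.23 with all libraries and ran from -0.21 to 0.38 with 1 library left out, so its sign is not settled. Cdkn1a, the cell cycle inhibitor p21 that Runx1 is known to repress in this lineage, stood at 145 and 156 CPM in Ring1a/b-/- libraries and 197 and 171 CPM in WT libraries (edgeR adjusted p = 0.527). Scd1, a fatty acid desaturase, stood at 259 ± 9.39 CPM in Ring1a/b-/- libraries and 341 ± 45.9 CPM in WT libraries (edgeR adjusted p = 0.326). Stat3, a signal transducer tied to Runx1 in skin, had 158 and 180 CPM in Ring1a/b-/- libraries and 104 and 68.4 CPM in WT libraries, with an edgeR adjusted p of 0.149 (log2 fold change 0.97 ± 0.26). DESeq2 called Stat3 as higher, together with Cdkn1c, the imprinted inhibitor p57, at 43.2 ± 9.47 CPM in Ring1a/b-/- libraries and 4.55 ± 5.36 CPM in WT libraries.

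Known targets of RUNX factors in blood, bone, neurons and lymphocytes were mostly too low to test. Of 16 blood targets 6 were tested, with 1 apart as higher, 1 as lower and a median of 0.9 (0.28 to 1.45 with 1 library left out). Csf1r, the macrophage growth factor receptor, had 86.4 and 29.1 CPM in Ring1a/b-/- libraries and 18.6 and 29.4 CPM in WT libraries. Zbtb7b, a factor of helper T cell fate, stood at 45.6 ± 6.36 CPM in Ring1a/b-/- libraries and 62.6 ± 9.11 CPM in WT libraries. Elane, Il3 and Blk had 0 counts in every library.

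Of 17 skeletal targets of Runx2, 9 were tested, 2 were apart as higher and the median was -1.48. That value rested on wild-type replicate 2: without this library the median was 0.57, and without the others it ran from -1.96 to -0.67. Col1a2, a collagen I chain, had 13.5 and 5.97 CPM in Ring1a/b-/- libraries and 11.4 and 139 CPM in WT libraries. Col1a1, the other chain, had 13.3 and 17.8 CPM in Ring1a/b-/- libraries and 14.4 and 113 CPM in WT libraries. Both are also fibroblast genes, and without wild-type replicate 1 edgeR called both as lower. With WT replicate 2 left out, Col1a1 had a log2 fold change of 0.09 and Col1a2 of -0.25. Alpl, the alkaline phosphatase of bone, was the 1 skeletal target that DESeq2 called, as higher, at 37.1 and 56.5 CPM in Ring1a/b-/- libraries and 14.8 and 1.67 CPM in WT libraries. Sp7, Ibsp, Bglap2 and Tnfrsf11b had 0 counts in every library.

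Among 8 Runx3 targets of sensory neurons and lymphocytes, 3 were tested, with 2 apart as higher, where 24.8% of all tested genes were. Eomes, 1 of these 2, passed the count filter only through the knockout libraries, so its separation was fixed by the filter. The list median of 1.74 (1.45 to 2.1 with 1 library left out) is the value of a single gene, Bcl2l11, when all libraries are used. Bcl2l11, the pro-apoptotic gene Bim, stood at 44.6 ± 11.1 CPM in Ring1a/b-/- libraries and 13.3 ± 4.31 CPM in WT libraries (log2 fold change 1.74 ± 0.58, edgeR adjusted p = 0.191), and DESeq2 called it as higher. Ntrk2, the neurotrophin receptor TrkB, stood at 3.06 ± 0.809 CPM in Ring1a/b-/- libraries and 3.38 ± 0.0568 CPM in WT libraries. Eomes, a T-box factor of cytotoxic lymphocytes and the other gene apart, was at 8.28 and 3.49 CPM in Ring1a/b-/- libraries and 0.38 and 0.334 CPM in WT libraries (edgeR adjusted p = 0.25). Prf1 and Tbx21 had 0 counts in every library.

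**Figure D5:**
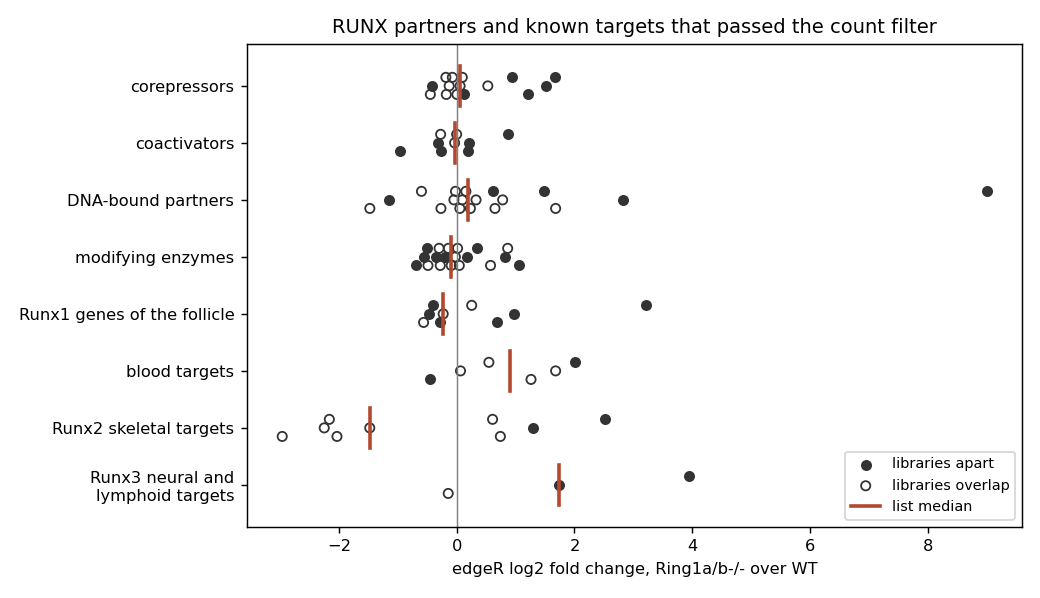
edgeR log2 fold change of Ring1a/b-/- over WT (horizontal axis) for each tested gene of the 8 lists (rows); filled points mark genes whose libraries do not overlap between genotypes, open points those that overlap, and red lines the list medians. The medians of the 5 upper lists lie between -0.23 and 0.19. Those of the blood and Runx3 lists stand at 0.9 and 1.74, from 6 and 3 tested genes. The skeletal median of -1.48 rests on WT replicate 2. The point near 9 is Gata2, whose fitted value has 0 wild-type counts behind it.

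The genes with the most similar profile over the 4 libraries were found by Euclidean distance between log2(CPM + 1) values centred on each gene's mean. For Runx1 the nearest of 9219 genes were Eml5 (distance 0.142), Zfhx3 (0.181), Caap1 (0.281), Plod2 (0.284) and Osgin1 (0.308). Zfhx3, a large zinc finger and homeobox factor, had 86.4 and 71.7 CPM in Ring1a/b-/- libraries and 10.2 and 16 CPM in WT libraries. For Runx3 they were Igf2bp2 (0.428), Krt18 (0.459), Rab6b (0.468), Nr2f2 (0.5) and Ctss (0.545). Krt18, a keratin of simple epithelia, and Ctss also belong to the Merkel and leukocyte marker lists.

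For Cbfb the nearest genes were Zbtb40 (0.0742), Armcx2 (0.0832), Bod1 (0.0898), Eed (0.0975) and Uck2 (0.0985). Eed, a core subunit of Polycomb repressive complex 2, had 77.9 and 75.9 CPM in Ring1a/b-/- libraries and 77.5 and 125 CPM in WT libraries, with the same high wild-type replicate 2 as Cbfb. For Runx2 they were Arvcf (0.296), Ubxn2b (0.527), Ttc8 (0.53), Rab32 (0.559) and Simc1 (0.6), genes with high knockout replicate 2 and low wild-type replicate 2. With 4 libraries such likeness describes these libraries only.

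Genes beside the Runx loci, named from RefSeq's GRCm38.p6 annotation, were read from the same libraries. Setd4, the nearest coding gene on the higher-coordinate side of Runx1, stood at 25.2 ± 0.383 CPM in Ring1a/b-/- libraries and 10.1 ± 4.1 CPM in WT libraries (log2 fold change 1.31 ± 0.75, edgeR adjusted p = 0.437). Clic6, on the other side, had 7 and 0 counts in Ring1a/b-/- libraries and 0 in both wild-type libraries. The neighbours of Runx3 were Syf2, at 120 ± 14.2 CPM in Ring1a/b-/- libraries and 137 ± 7.45 CPM in WT libraries, and Clic4, at 191 ± 20.3 CPM in Ring1a/b-/- libraries and 192 ± 52.4 CPM in WT libraries (edgeR adjusted p = 0.76 and 0.996). Supt3, a transcription coactivator gene whose span overlaps Runx2, stood at 14.1 ± 6.81 CPM in Ring1a/b-/- libraries and 13.2 ± 6.84 CPM in WT libraries. The sources used here do not say whether counting used strand or how reads over overlapping genes were treated. The counts of Supt3 and Runx2 may be affected by their overlap.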

How the data were processed

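RNA-seq of 4 libraries was used. Per the submitters' processing notes the tools included TopHat2 2.1.1, HTSeq 0.7.2 and DESeq2, with build mm9, and the sources used here do not give their settings, the annotation or the use of strand. The deposited count table holds whole-number counts with no normalization. The authors' normalized table holds a signal, those counts divided by 1 constant per library. The authors' comparison table gives log2 fold changes with SE, a Wald score and p-values.

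Counts were tested with edgeR 4.0.16 in R 4.3.3 (filterByExpr, TMM, robust glmQLFit, glmQLFTest, genotype as the only term; Benjamini-Hochberg adjusted p under 0.05 over 13134 genes), checked on simulated data. The SE is the size of the change divided by the root of its F statistic. Alternatives were DESeq2 1.42.0, limma-voom 3.58.1, other filters and scalings, a replicate block and each library left out. The genes and lists were chosen with earlier results of these data known. From each list the text names the called genes or else the 2 of highest mean CPM, plus genes that DESeq2 called, Eomes and single markers, chosen after their values were seen. A few genes that this rule takes are not reported here. Similar genes needed a mean of at least 20 CPM. Neighbours are the overlapping or nearest coding genes in RefSeq, a rule set after the data were seen. Shares per gene length were not made, since exon lengths were not used here. The Ring1b peak lists were not analysed here, because no mm9 annotation was used. Total counts ran from 2785843 to 7740945, and intervals cover counting error only.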

Additional observations from a re-analysis of the deposited data

How the results depend on the processing

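With another scaling, filter, tool or the replicate block, 24 of 24 log2 fold changes of the 4 genes stayed within the spread between replicates. With 1 library left out 13 of 16 did, and the 3 that moved further were Runx1, Runx3 and Cbfb without WT replicate 2. With 1 library left out, Runx1 ran from 2.11 to 2.91, Runx2 from 0.36 to 2.71, Runx3 from 3.47 to 4.47 and Cbfb from -0.73 to 0.041. Counts of called genes moved far more. Over all genes edgeR called 7 higher and 1 lower; with DESeq2 size factors, and with a filter of 1 CPM in 2 libraries, it called 1 higher and 0 lower, and with no low-count filter 455 and 347. DESeq2 called 901 and 891, and limma-voom 0 and 0 (1956 at an unadjusted p under 0.05). With 1 library left out the range was 0 to 43 higher and 0 to 17 lower. The replicate block gave 213 higher and 203 lower, with Runx1 at 2.5. Same-numbered libraries deviated at a correlation of -0.14, and the crossed pairing, chosen after the data were seen, gave 8 higher and 0 lower, so the numbers are not treated as pairs. Among the RUNX lists, 0 were called in edgeR, against 8 higher and 2 lower in DESeq2, 6 and 3 with no filter, 3 and 1 with the replicate block, and 0 to 2 lower with 1 library left out. The causes were not tested. Low wild-type counts limit Runx3, and 2 libraries per genotype limit every value.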
